A study of Mus musculus with 16 samples.

Results

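H3K9me3 was compared between hair follicle stem cells of early anagen (EA-HFSCs), which divide, and of late catagen (LC-HFSCs), which are quiescent, through the peaks called in each population. The members are every region of both H3K9me3 peak lists, 42277 for EA-HFSCs and 1414 for LC-HFSCs, which is 43691 of the 219698 regions in the 12 peak lists of the series. An LC-HFSC peak was called kept when it shared at least 1 bp with an EA-HFSC peak and gained when it did not, and an EA-HFSC peak without any such overlap was called lost. The lists come from wild-type mice of a CD1 and FVB cross, labelled male although the methods of the study name both sexes for most of its work, aged PD22 to PD25 for EA-HFSCs and PD38 to PD44 for LC-HFSCs, with 15 to 20 mice per preparation of cells. Both populations were sorted from skin as CD34+ cells positive for α6-integrin, and the CD34- cells of the same sort are called non-EA-HFSCs and non-LC-HFSCs. Antibodies to H3K9me3 from 2 suppliers are named, and an IgG library of the same cells served as background. Reads of independent experiments were pooled before peak calling, so there is 1 list for each population, no difference has a replicate check and no test was possible. Intervals in the text are 95% Wilson intervals and speak of counting error alone, and neighbouring peaks are not independent. The lists do not tell the read depth. Per the methods of the study, the reads did not saturate the detection of this mark and were more numerous for LC-HFSCs.

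Trimethylated lysine 9 of histone H3 marks condensed chromatin that is kept silent. It is written by enzymes such as Suv39h1, Suv39h2 and Setdb1, is bound by the heterochromatin protein HP1, and covers satellite repeats, retroelements and clustered families of zinc finger genes. KRAB zinc finger proteins bind retroelements and recruit Setdb1 through the corepressor Trim28. The sort was checked through H3K4me3, a mark of active gene starts. Of the 27 bulge genes listed, 23 had an H3K4me3 peak within 3000 bp of the gene start in EA-HFSCs and the same number had one in LC-HFSCs. Itga6, Trp63, Runx1 and Nfib had none there at either age, and other transcript starts of these genes were not examined. Over all protein-coding genes the shares were 60.4% and 53.9%. H3K27me3, a mark of repressed gene starts, was found at 2 of the 27 in EA-HFSCs (Wif1 and Bmp6) and at 1 in LC-HFSCs (Wif1), against 13.0% and 3.39% of all genes. Of the markers of other cell types, H3K4me3 was found in EA-HFSCs at 2 of 6 for melanocytes (Dct and Mitf), 0 of 7 for leukocytes, 4 of 6 for fibroblasts (Col1a1, Col1a2, Pdgfra and Dcn) and 1 of 4 for endothelium (Kdr), so that the fibroblast list was near the share over all genes. In LC-HFSCs the counts were 2, 0, 3 and 1, Dcn being the gene without a peak. The part of other cells in the results below was not tested.

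The strongest loci of each kind are shown first by the 300 bases at the middle of the peak, read from the + strand of mm9 with each CpG in capitals. The score of a peak is 10 times the negative log10 of its p-value and is used to rank peaks within a list. Where bands or minimums of score are applied to both lists, the same score need not stand for the same enrichment. The study gives the read numbers of these populations only as ranges.
LC-HFSC kept peak, chr12:20236265-20236564: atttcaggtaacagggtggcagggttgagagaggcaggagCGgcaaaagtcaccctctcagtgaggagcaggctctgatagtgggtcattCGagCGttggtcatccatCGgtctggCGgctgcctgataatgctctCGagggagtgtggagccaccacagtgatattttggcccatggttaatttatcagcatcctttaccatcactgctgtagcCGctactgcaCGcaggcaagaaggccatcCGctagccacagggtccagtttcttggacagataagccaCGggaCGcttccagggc
LC-HFSC kept peak, chr13:62468481-62468780: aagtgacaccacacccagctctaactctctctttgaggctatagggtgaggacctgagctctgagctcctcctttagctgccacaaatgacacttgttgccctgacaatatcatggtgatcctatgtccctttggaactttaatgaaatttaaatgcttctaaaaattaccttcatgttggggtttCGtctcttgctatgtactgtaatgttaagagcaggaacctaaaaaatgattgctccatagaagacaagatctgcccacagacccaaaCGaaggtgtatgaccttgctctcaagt
LC-HFSC gained peak, chr13:13021395-13021694: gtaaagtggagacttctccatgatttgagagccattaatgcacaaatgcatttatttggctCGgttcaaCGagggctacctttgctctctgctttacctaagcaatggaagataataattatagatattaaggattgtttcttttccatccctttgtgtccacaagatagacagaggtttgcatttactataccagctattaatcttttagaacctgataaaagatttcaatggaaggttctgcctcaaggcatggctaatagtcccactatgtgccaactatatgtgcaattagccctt
EA-HFSC lost peak, chr10:50616640-50616939: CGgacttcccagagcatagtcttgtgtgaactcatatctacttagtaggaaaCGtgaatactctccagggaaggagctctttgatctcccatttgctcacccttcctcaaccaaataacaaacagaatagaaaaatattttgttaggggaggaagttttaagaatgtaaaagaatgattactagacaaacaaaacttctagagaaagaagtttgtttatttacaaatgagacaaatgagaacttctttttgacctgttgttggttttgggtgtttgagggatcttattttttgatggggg
The kept peak on chromosome 12 (chr12:20232458-20240371) was 7914 bp wide with the highest score in LC-HFSCs, 444.7, and 11 CpGs stood in the bases shown. It lay between genes, 185384 bp from the nearest start of a protein-coding gene, on an EA-HFSC peak of almost the same width, 7936 bp. The kept peak on chromosome 13 (chr13:62464910-62472352) was 7443 bp wide with a score of 400.0 and overlapped Gm3604, a predicted gene. Here the LC-HFSC peak spanned 3 EA-HFSC peaks, which covered 2966 bp. Between these in score was a kept peak of 9671 bp on sequence of chromosome 9 without a fixed place. The next kept peaks lay in introns of 2410141K09Rik (chr13:66531865-66537784, score 325.2) and of the zinc finger gene Zfp369 (chr13:65392558-65399744, score 306.4), where a peak of 7187 bp spanned 4 EA-HFSC peaks. The gained peak on chromosome 13 (chr13:13016642-13026448) was the widest in LC-HFSCs, 9807 bp with a score of 444.6, and lay 76114 bp from the nearest gene start, that of Prl2c2, a prolactin family member. Another gained peak (chr5:138656236-138659817) had a score of 191.4 and lay 9099 bp from the start of BC055004. Both gained loci held a peak in non-EA-HFSCs and in non-LC-HFSCs, although EA-HFSCs had none. The lost peak (chr10:50611276-50622303) had the highest score in EA-HFSCs, 2983, and lay in an intron of Sim1, a transcription factor of the hypothalamus. Next among the lost peaks were a 10885 bp peak 10315 bp from the start of Barhl2, a neural homeobox gene, with a score of 2449, and a 14600 bp peak in an intron of Tbx15, a T-box factor expressed in dermis and skeleton, with a score of 2101. Cut into 10 pieces of 30 bases, the Sim1 sequence occurred once in the genome in all 10 pieces. Of the pieces of the other 3 sequences, 7, 6 and 8 occurred once, in the order shown, and the most frequent piece occurred 6, 7 and 2 times. Reads from near-identical copies cannot always be placed, so the strength of such a peak is uncertain.

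Nearly all early anagen peaks were lost, and peaks in late catagen were wider. Of the 42277 EA-HFSC peaks 756 were kept, 1.79% of that list, and of the 1414 LC-HFSC peaks 602 were kept, 42.6% of that one, leaving 41521 lost and 812 gained. The second share depends on the rule, at 12.3% when an overlap of 50% of the LC-HFSC peak was required, 21.9% at scores of at least 100 in both lists and 1.20% for the 1414 highest scores of each list. The median width of the early list was 649 bp and that of the late list 1629 bp, a ratio of 2.51. Peaks of at least 2000 bp made up 5.25% (5.04 to 5.47) of the EA-HFSC list and 30.9% (28.6 to 33.4) of the LC-HFSC list. Kept LC-HFSC peaks had a median width of 1866 bp and gained ones of 1503 bp. Kept EA-HFSC peaks had a median of 660 bp and lost ones of 649 bp. Wide peaks were fewer among the kept EA-HFSC peaks, with an upper quartile of 904.5 bp against 1011 bp in lost ones. At least 2000 bp wide were 2.65% (1.72 to 4.05) of the kept and 5.30% (5.09 to 5.52) of the lost EA-HFSC peaks. The median width rose with the band of score in both lists, from 564 to 2862 bp in the early and from 1321 to 5591 bp in the late one. Among peaks with scores from 40 to below 50 the ratio of the medians was 2.34, from 50 to below 100 it was 2.55, from 100 to below 200 it was 2.26, and at 200 or above it was 1.95, the last over 27 LC-HFSC peaks. Against the 1414 EA-HFSC peaks of highest score, with a median of 2812 bp, the direction turned and LC-HFSC peaks were the narrower.

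The greater width was seen at the same places. In 450 cases 1 LC-HFSC peak met 1 EA-HFSC peak and neither met another. Across these pairs the EA-HFSC peak had a median of 673 bp and the LC-HFSC peak one of 1752 bp, with a median ratio of 2.52 (quartiles 1.80 and 3.42), and the LC-HFSC peak was the wider in 436 pairs (96.9%). A wide peak meets another more readily than a narrow one, and the pairs were chosen by overlap. Of the 756 kept EA-HFSC peaks, 476 (63.0%) lay wholly inside an LC-HFSC peak. The median kept LC-HFSC peak had 37.8% of its bases under EA-HFSC peaks (quartiles 25.5 and 54.3). It held 1 EA-HFSC peak in 462 cases, 2 in 113, 3 in 24 and more in 3. For the CD34- populations the medians were 1072 bp (non-EA-HFSCs) and 578 bp (non-LC-HFSCs), so in the CD34- cells the later list was the narrower, with a ratio of 0.539. Background and fragment length of the libraries cannot be read from the lists, and their part in these widths was not tested.

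**Figure D1:**
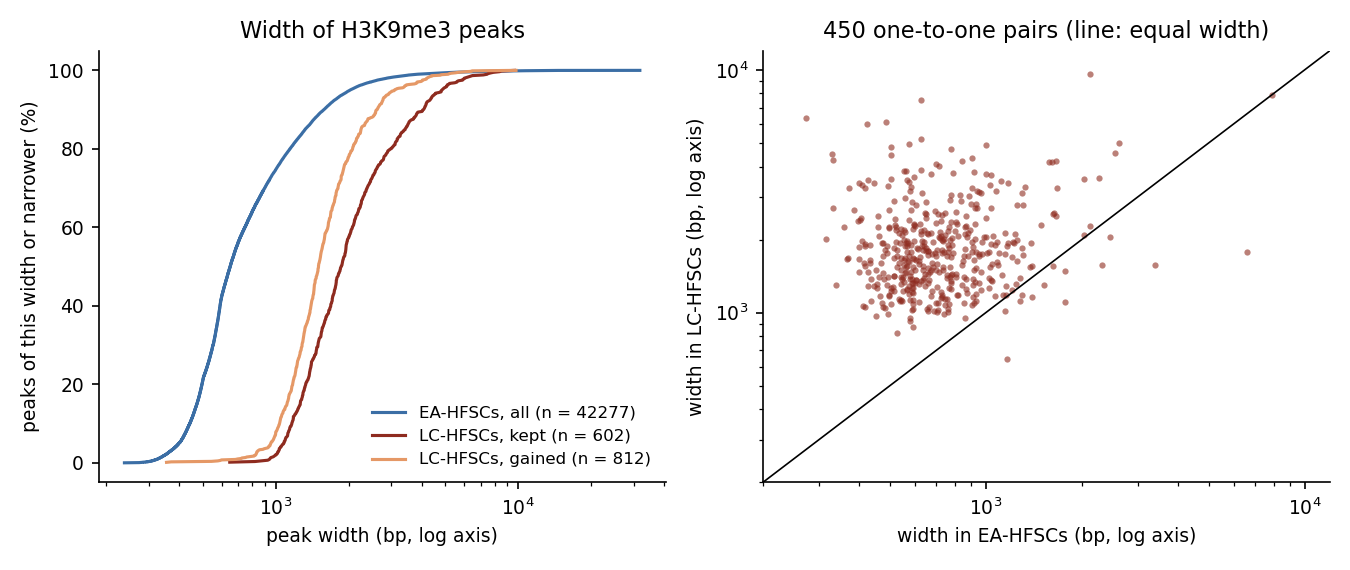
Left, the share of H3K9me3 peaks (%) at or under each width (bp, log axis) for all EA-HFSC peaks and for kept and gained LC-HFSC peaks. Right, the width in LC-HFSCs against that in EA-HFSCs (bp, log axes) for each of 450 pairs, with a line of equal width. Of the points, 436 lie above the line.

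By definition gained peaks did not touch an early anagen peak, and their distances to the nearest one are given here. The median distance from a gained peak to the nearest EA-HFSC peak was 5.97 kb, with 15.8% (13.4 to 18.4) within 1 kb, 62.3% (58.9 to 65.6) within 10 kb and 95.1% (93.4 to 96.4) within 100 kb. EA-HFSC peaks were themselves dense, 94.6% of them lying within 100 kb of another, and no background was computed for these distances. At 1500 bp to the right of the middle of gained peaks on placed chromosomes, 4.74% of positions were under an EA-HFSC peak. At 10000 bp the share was 4.21%.

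The peaks of LC-HFSCs were spread unevenly over the chromosomes. There were 3.34 LC-HFSC peaks per 100 EA-HFSC peaks in all. Chromosome 17 had 8.77 (7.44 to 10.3), from 154 and 1756 peaks, and chromosome 13 had 7.50 (6.41 to 8.79), from 165 and 2199. Chromosomes 12, 18 and 10 followed with 4.99, 4.91 and 4.82, and their intervals overlapped each other but not those of chromosomes 13 and 17. The lowest values were 1.29 (0.830 to 1.99) on chromosome 15, 1.30 (0.591 to 2.84) on chromosome X from 6 peaks, 1.35 on chromosome 14, 1.49 on chromosome 19 and 1.54 on chromosome 3. On the Y chromosome the early list had 5 peaks and the late list 0. Chromosomes 13, 17 and 10 together held 420 LC-HFSC peaks (29.7%) and 6052 EA-HFSC peaks (14.3%). The share of EA-HFSC peaks kept followed the same order at the top, 5.58% on chromosome 17 and 4.37% on chromosome 13. Sequence not placed on a chromosome held 71 LC-HFSC and 120 EA-HFSC peaks, 59.2 per 100 (44.2 to 79.3), and is left out of what concerns genes.

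**Figure D2:**
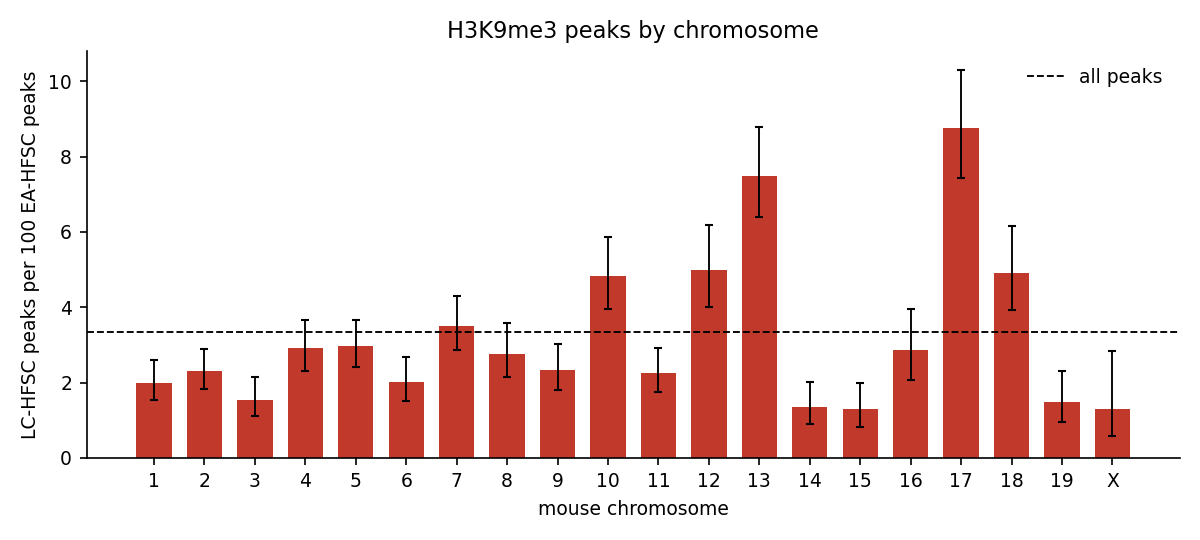
LC-HFSC peaks per 100 EA-HFSC peaks (vertical axis) on each autosome and the X chromosome, with 95% intervals that cover counting error only. The dashed line is the value for all peaks, 3.34; chromosomes 17 and 13 stand highest, at 8.77 and 7.50.

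Part of the LC-HFSC list was packed into few places. The 10 fullest 1-Mb windows held 333 LC-HFSC peaks, 23.6% (21.4 to 25.8), against 2.23% of the EA-HFSC list and 9.48% (8.06 to 11.1) of the 1414 EA-HFSC peaks of highest score, a list of the same length. Joining peaks with gaps of up to 100 kb gave 745 LC-HFSC clusters, of which 575 were single peaks and the largest held 35. Clusters of at least 10 peaks numbered 20 and held 367 LC-HFSC peaks (26.0%), and in the equally long list of top EA-HFSC peaks 9 such clusters held 116 (8.20%). The share with a neighbour within 100 kb went the other way, 59.3% (56.8 to 61.9) in LC-HFSCs and 66.9% (64.4 to 69.3) among the top EA-HFSC peaks, so the LC-HFSC list combined large clusters with many isolated peaks. Kept and gained peaks both took part, with 56.0% and 48.8% having a neighbour of their own kind within that distance. In the 51 clusters with at least 5 LC-HFSC peaks, 353 of 741 EA-HFSC peaks (47.6%) were kept, a description only, since LC-HFSC peaks define the clusters.

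The fullest cluster, chr13:62123388-62878091, held 35 LC-HFSC peaks, 15 kept and 20 gained, and 70 EA-HFSC peaks, of which 21 were kept. Its protein-coding genes were Zfp808, Zfp934, Zfp935, Gm3604, Gm17352 and 6720489N17Rik, the first 3 being zinc finger genes. The second, chr5:110096779-110560301, held 29 LC-HFSC peaks over 8 genes, among them Zfp605, Zfp932, Plcxd1 and the GTP-binding protein gene Gtpbp6. The third, chr17:17330028-17499347, held 28 LC-HFSC peaks around the single predicted gene Gm6712. These clusters mixed kept and gained peaks in similar numbers. The fourth, chr18:37796903-37934025, differed from them in that 20 of its 26 LC-HFSC peaks were kept and 33 of its 54 EA-HFSC peaks (61.1%) were too. It covered Slc25a2, a mitochondrial ornithine carrier, Taf7, a subunit of the general transcription factor TFIID, 3222401L13Rik, and Pcdhgc5 of the gamma protocadherins, which are adhesion proteins of neurons. The fifth, chr10:81465715-81692570, had 25 LC-HFSC peaks and kept 31 of 48 EA-HFSC peaks (64.6%) over Zfp873, Zfp938, Gm8290 and AU041133. The sixth, chr13:67137846-67422308, had 21 LC-HFSC peaks over 10 gene entries, 9 of them zinc finger genes such as Zfp455, Zfp457, Zfp458 and Zfp595, and the other Rsl1, a zinc finger regulator of sex-limited liver genes. The seventh, chr4:146606069-146961686, had 19 LC-HFSC peaks, 13 of them gained, over Gm13145, Gm13151, Gm13152, Gm13154 and Gm16503. The newer RefSeq symbols of the first 4 of these are Zfp978, Zfp988, Zfp982 and Zfp985. The eighth, chr12:20211403-20324232, had 18 LC-HFSC peaks, among them the strongest of the list, and 0 protein-coding genes. Of the 51 clusters with at least 5 peaks, 22 held a zinc finger gene by its vM1 symbol, 1 a vomeronasal receptor gene, 2 a protocadherin gene and 0 an olfactory receptor gene, and 11 held no protein-coding gene. With the newer symbols, 26 of the 51 held a zinc finger gene, compared with 64 of all 745 clusters, most of which are single peaks and so cover less of the genome.

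**Figure D3:**
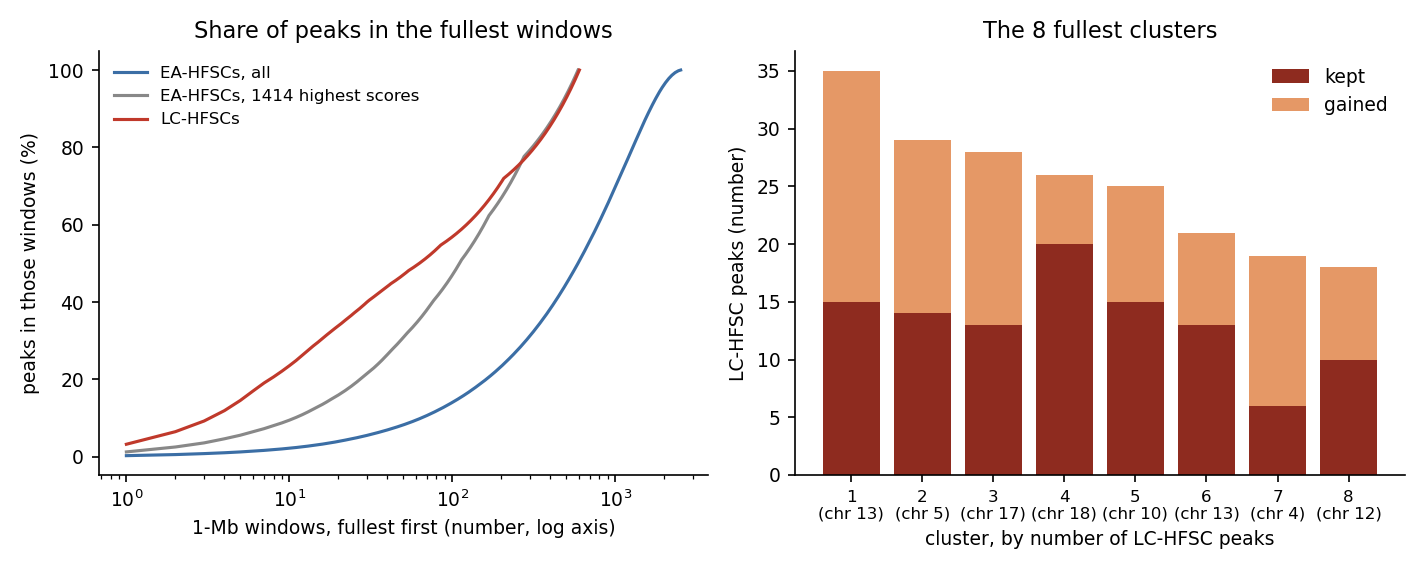
Left, the share of peaks (%) in the fullest 1-Mb windows against the number of windows (log axis) for all EA-HFSC peaks, the 1414 EA-HFSC peaks of highest score and the LC-HFSC peaks, with 2.23%, 9.48% and 23.6% at 10 windows. Right, kept and gained LC-HFSC peaks (number) in the 8 fullest clusters; the largest holds 35 and the fourth has the most kept peaks, 20.

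Kept loci were also marked in CD34- cells. Of the kept LC-HFSC peaks, 92.2% (89.8 to 94.1) overlapped a non-EA-HFSC peak and 69.3% (65.5 to 72.8) a non-LC-HFSC peak. From the side of early anagen, 688 of the 756 kept EA-HFSC peaks (91.0%) overlapped a non-EA-HFSC peak, compared with 2946 of the 41521 lost ones (7.10%). For non-LC-HFSCs the shares were 56.0% and 9.01%. Of the gained peaks, 84.0% (81.3 to 86.4) overlapped a non-EA-HFSC peak of the earlier age and 43.7% (40.3 to 47.2) a non-LC-HFSC peak. At the middle of kept LC-HFSC peaks on placed chromosomes, 88.7% of positions were under a non-EA-HFSC peak and 46.3% under an EA-HFSC peak, and 10 kb to the right the values were 28.0% and 8.58%. At the middle of gained peaks they were 78.6% and, by the choice of these peaks, 0%. Both lists of CD34- cells were longer than that of LC-HFSCs, with 17873 peaks in non-EA-HFSCs and 18236 in non-LC-HFSCs.

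**Figure D4:**
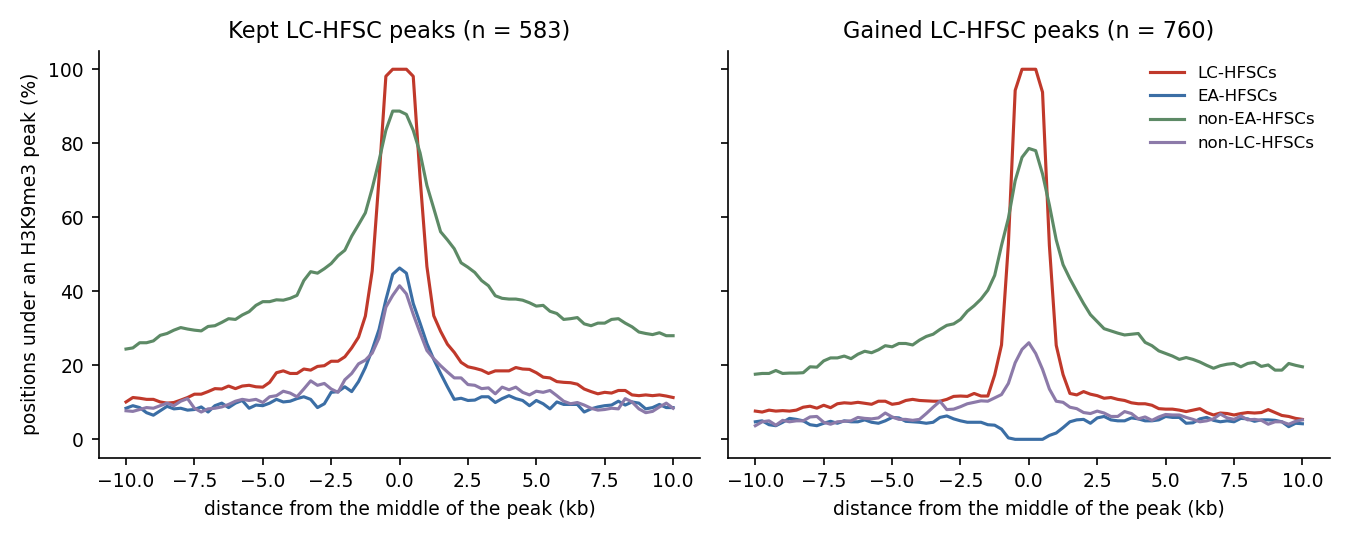
Positions under an H3K9me3 peak (%) against distance from the middle of the LC-HFSC peak (kb), for 583 kept and 760 gained peaks on placed chromosomes, in each of the 4 populations. The non-EA-HFSC line reaches 88.7% at kept and 78.6% at gained peaks; the EA-HFSC line is 0% at the middle of gained peaks because they were chosen that way.

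Kept and lost peaks differed in the other marks they carried and in base composition. Of the kept EA-HFSC peaks 2.12% (1.31 to 3.41) overlapped an H3K4me3 peak of the same cells, compared with 24.9% (24.5 to 25.3) of the lost ones. For H3K27me3 the shares were 15.9% (13.4 to 18.6) and 28.7% (28.2 to 29.1). In LC-HFSCs 5 of 602 kept peaks (0.831%) and 0 of 812 gained peaks lay on an H3K4me3 peak, and the latter count allows a share of up to 0.471%. The median GC content was 42.5% in kept and 46.5% in lost EA-HFSC peaks, and 42.0% and 42.3% in kept and gained LC-HFSC peaks. The ratio of observed to expected CpG had a median of 0.155 in kept and 0.219 in lost EA-HFSC peaks, with upper quartiles of 0.268 and 0.449. Within genes, 47.5% of lost and 40.2% of kept EA-HFSC peaks overlapped a protein-coding gene, as did 29.9% of the gained LC-HFSC peaks. The parts of base composition and of the other marks in what was kept were not tested.

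At gene starts few peaks were kept. Of 22367 protein-coding genes, 10120 had an EA-HFSC peak within 3000 bp of the start (45.2%) and 66 had an LC-HFSC peak (0.295%). Of the former 43 kept one (0.425%), and of the 12247 genes without an EA-HFSC peak 23 gained one (0.188%). The number kept was 82 when any annotated transcript start was taken, and 7, with 11 gained, at scores of at least 100 in both lists. Such a minimum also removes weaker EA-HFSC peaks, so a gene that has only these can count as gaining. A gene was counted as keeping when both lists had a peak in its window, and at 33 of the 43 an EA-HFSC and an LC-HFSC peak overlapped each other. Zinc finger genes made up 14 of the 43 (32.6%, against 1.66% of all genes), protocadherin genes 4 (9.30%, against 0.107%) and predicted genes named Gm 16 (37.2%, against 9.08%). H3K4me3 was present at 6 of the 43 in EA-HFSCs (14.0%), at 3 of the 23 gained (13.0%) and at 9114 of the 10077 that lost the peak (90.4%), against 60.4% of all genes. H3K27me3 was less unlike, at 11 (25.6%), 2 (8.70%) and 2022 (20.1%), against 13.0%. Non-EA-HFSCs had an H3K9me3 peak in the window at 42 of the 43 kept genes and at 22 of the 23 gained, but at 307 of the 10077 that lost it (3.05%), a share near the 2.80% of all genes.

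The highest scores among the kept gene starts were those of Gm3604, described above, and Gm8290 on chromosome 10. At Gm8290 an LC-HFSC peak of 4177 bp (score 296.8) lay over an EA-HFSC peak of 1152 bp. That was the strongest of 3 EA-HFSC peaks, which covered 3391 bp of the window. At Zfp873, a zinc finger gene in the same cluster, the LC-HFSC peak was 5114 bp wide with a score of 241.5. The strongest of 4 EA-HFSC peaks there was 675 bp wide and did not overlap that LC-HFSC peak. Slc25a2 and Taf7 shared 1 LC-HFSC peak of 4919 bp (score 191.2). At Slc25a2 it spanned an EA-HFSC peak of 1002 bp, while the strongest EA-HFSC peak in the window of Taf7, 3373 bp wide, did not overlap it. Zfp936 had an LC-HFSC peak of 2576 bp and an EA-HFSC peak of 1634 bp. Zfp958 had 4426 bp against 780 bp. At all of these genes the LC-HFSC peak was wider than the strongest EA-HFSC peak of the same window. The genes were ranked by LC-HFSC score, and width rose with score, so the choice favours a wide LC-HFSC peak. The next in order were the predicted genes Gm10130 (score 168.1), Gm6712 (161.8) and Gm13152 (157.4, newer symbol Zfp982). Further zinc finger genes counted as keeping a peak included Zfp850, Zfp930, Zfp950, Zfp709, Zfp964, Zfp640, Zfp458, Zfp738, Zfp939 and Zfp951. Their LC-HFSC widths ran from 1045 bp at Zfp458 to 3551 bp at Zfp850. At Zfp640, Zfp458 and Zfp951 each list had 1 peak in the window, and these peaks stood apart. For Zfp738 the start counted was that of a short entry of 0.255 kb, while the longer entry of 19.6 kb lost its start peak. Over the 43 genes, the strongest LC-HFSC peak of the window was wider than the strongest EA-HFSC peak at 41, although these peaks need not overlap. The exceptions were Sgsm1, with 1579 bp in LC-HFSCs against 3403 bp, and Tcfl5, with 1552 bp against 1622 bp, both named after their values were seen.

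Of the gains, the strongest was at Orc2, a subunit of the origin recognition complex that licenses DNA replication, with an LC-HFSC peak of 4016 bp (score 156.1, chr1:58563089-58567104) and 0 EA-HFSC peaks in the window. It also lay on peaks of both CD34- populations. Next came Gm17635 with 2731 bp (128.7), Gm13151 with 5521 bp (128.3, newer symbol Zfp988), D130040H23Rik with 2781 bp (109.9) and 2410141K09Rik with 1914 bp (94.40). Zfp87 gained a peak of 1733 bp, Tdpoz4, which encodes a protein with TRAF and POZ domains, one of 2372 bp, and Pcdhb19 of the beta protocadherins one of 1444 bp. Gm10024 and Gm10142 shared a peak of 1884 bp. Zfp125 and the olfactory receptor gene Olfr212 also gained a peak, of 1423 bp and 1836 bp. Of the gained peaks named here, those of Orc2 and Gm13151 were the widest, and the scores of all were below those of the 10 kept genes named first.

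In gene bodies 11422 genes had an EA-HFSC peak (51.1%) and 326 an LC-HFSC peak (1.46%), of which 294 kept one (2.57% of the 11422) and 32 gained one (0.292% of the 10945 without). At scores of at least 50 in both lists the counts were 166 and 43, and at scores of at least 100 they were 32 and 41. Gained outnumbered kept at 100, but a gene whose EA-HFSC peaks all scored lower was then counted as gaining. At 176 of the 294 an EA-HFSC and an LC-HFSC peak overlapped each other within the gene. Pcdhgc5, annotated over the 168 kb of the gamma cluster, had the most bases under LC-HFSC peaks, 61627 bp in 25 peaks (36.8% of its length), against 38061 bp in 44 EA-HFSC peaks. Its start carried H3K4me3 and H3K27me3 in EA-HFSCs and neither in LC-HFSCs. Zfp942 followed with 17139 bp in 7 LC-HFSC peaks and 6299 bp in 10 EA-HFSC peaks. Titin (Ttn), the giant protein of the sarcomere, had 14183 bp in 6 LC-HFSC and 6478 bp in 11 EA-HFSC peaks. In these 3 genes fewer peaks covered more bases in LC-HFSCs, but genes were ranked by bases under LC-HFSC peaks, which favours this. Fewer peaks were not seen in all 10, since 2410141K09Rik had 5 in each list and 3300002I08Rik had 5 LC-HFSC and 4 EA-HFSC peaks. Then came Zfp369 (13362 bp), 2410141K09Rik (12752 bp), 3300002I08Rik (12644 bp), the overlapping genes Cox16 and Synj2bp, which share the same 12454 bp, Zfp943 (12392 bp) and Zfp110 (11475 bp). Cox16 serves the assembly of cytochrome oxidase, and Synj2bp is a protein of the outer mitochondrial membrane. The fourth gained peak by score, 4325 bp wide, covered an exon of Zfp286, a gene with 3 other peaks in EA-HFSCs.

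Zinc finger genes were the list with the most members marked in LC-HFSCs. By vM1 symbol, 263 of 371 had an EA-HFSC peak in the body (70.9%) and 89 an LC-HFSC peak (24.0%, against 1.46% of all genes), 82 kept and 7 gained. At the start 239 had an EA-HFSC peak and 16 an LC-HFSC peak (4.31%, against 0.295%). When the newer RefSeq symbols were also used, 104 of 433 had an LC-HFSC peak in the body (24.0%) and 21 at the start (4.85%). Of the LC-HFSC peaks, 10.5% (9.04 to 12.2) touched the body of a zinc finger gene, 15.1% of the kept and 7.14% of the gained ones, compared with 1.4% of EA-HFSC peaks, 0.849% of the 1414 EA-HFSC peaks of highest score, 2.06% in non-EA-HFSCs, 2.50% in non-LC-HFSCs and 0.386% of the genome by length. Within 100 kb of such a gene lay 26.9% (24.6 to 29.2) of LC-HFSC and 4.95% of EA-HFSC peaks. In the 89 genes with an LC-HFSC peak in the body, cut into 3 equal parts from start to end, 88 of 139 LC-HFSC peaks (63.3%, 55.0 to 70.9) had their middle in the last part and 19 (13.7%) in the first. The last exon of these genes typically encodes the zinc fingers. EA-HFSC peaks of the same 89 genes had 121 of 247 (49.0%, 42.8 to 55.2) in the last part, and LC-HFSC peaks of the 237 other genes were spread evenly, with 34.1% there. Zinc finger genes lie in tandem arrays of similar copies, so neighbouring members share peaks and alignment of reads to them is uncertain.

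Of the 24 protocadherin genes, 10 had an EA-HFSC peak at the start and 5 an LC-HFSC peak. Pcdhgc5, Pcdhb2, Pcdhb18 and Pcdhb22 kept one and Pcdhb19 gained one, with widths from 1033 bp at Pcdhb22 to 2331 bp at Pcdhgc5. At Pcdhb2 the EA-HFSC peak of 490 bp and the LC-HFSC peak of 1992 bp stood apart. In the body 9 had an EA-HFSC and 4 an LC-HFSC peak. Over all genes 45.2% had an EA-HFSC and 0.295% an LC-HFSC peak at the start, and 51.1% and 1.46% had one in the body. Of 1113 olfactory receptor genes, which also lie in arrays, 44 (3.95%) had an EA-HFSC peak at the start and 1 (0.0898%) an LC-HFSC peak, Olfr212, and of 322 vomeronasal receptor genes 9 (2.80%) had an EA-HFSC peak and 0 an LC-HFSC peak. Of 97 keratin and keratin-associated genes, 7 (7.22%) had an EA-HFSC peak at the start and 0 an LC-HFSC peak. The LC-HFSC counts of these 3 families are near that background and are no result about them.

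The following lists are read against the 45.2% of all genes with an EA-HFSC peak at the start and the 51.1% with one in the body. Of 8 H3K9 methylase genes 6 had an EA-HFSC peak at the start, among them Ehmt2 and Setdb2, and 0 an LC-HFSC peak. For the demethylases the counts were 8 of 11 gene entries and 0, for readers of the mark and other heterochromatin factors 16 of 20 and 0, and for DNA methylation 4 of 9 and 0. In the gene body the LC-HFSC counts were also 0 in these 4 lists. Genes of the bulge, such as the markers used to sort and name these cells, had an EA-HFSC peak at the start in 10 of 27 cases and in the body in 16, and an LC-HFSC peak in 0. Of the differentiation genes 9 of 23 entries had an EA-HFSC peak at the start and 0 an LC-HFSC peak. Genes of CDK inhibitors and tumour suppressors had one at the start in 13 of 15 cases and in the body in 14, and 0 in LC-HFSCs. With 0.295% of all genes marked at the start in LC-HFSCs and 1.46% in the body, a count of 0 in a list of this length is near the background and is no result about the list. Of 38 imprinted genes 21 had an EA-HFSC peak at the start and 0 an LC-HFSC peak, and in the body 24 and 2. These were Kcnq1, a potassium channel, with a peak of 1480 bp, and Grb10, an adaptor of growth factor receptors, with one of 1039 bp at a score of 40.57, just above the threshold of 40. In Grb10 the strongest of 12 EA-HFSC peaks was 2114 bp wide. Markers of melanocytes, leukocytes, fibroblasts and endothelium had 1 member each with an EA-HFSC peak at the start, of 6, 7, 6 and 4, and 0 in LC-HFSCs.

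**Figure D5:**
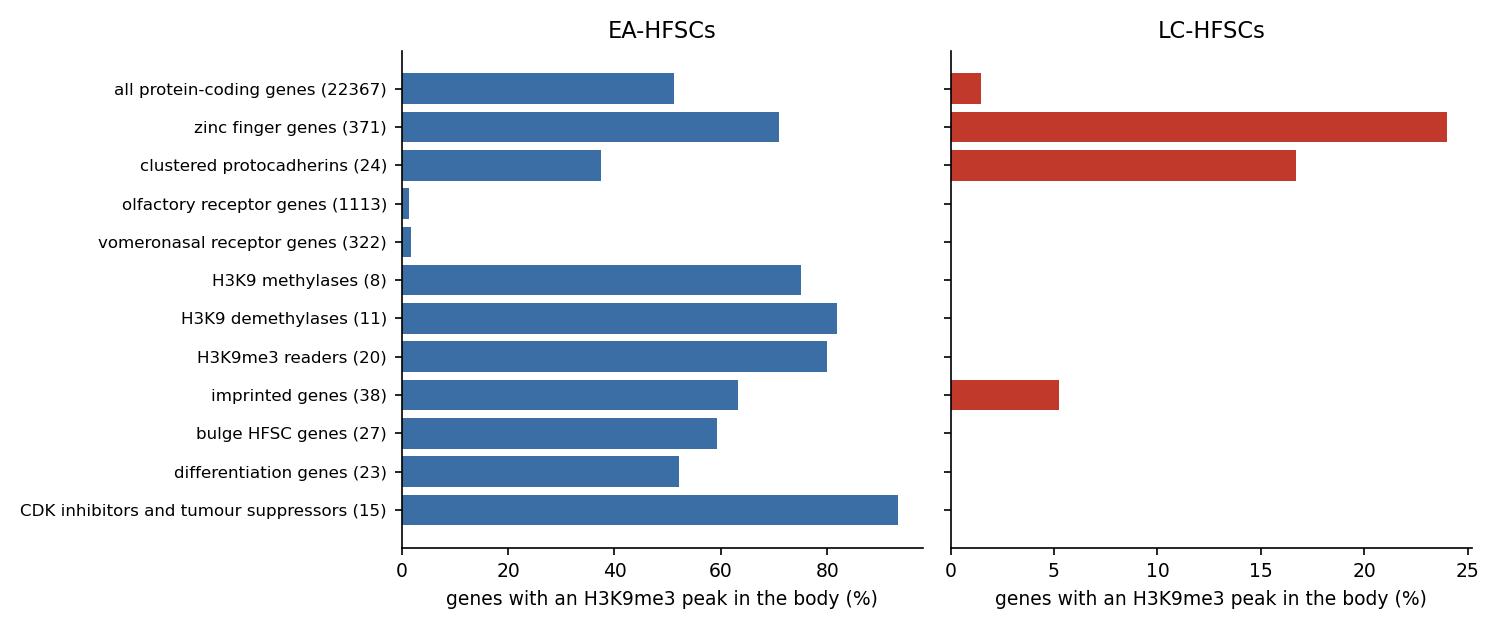
Genes with an H3K9me3 peak in the body (%) in EA-HFSCs (left) and LC-HFSCs (right) for each gene list, with its number of gene entries in brackets; the horizontal axes differ in scale. In LC-HFSCs zinc finger genes reach 24.0% (89 of 371), protocadherins 16.7% (4 of 24) and imprinted genes 5.26% (2 of 38). Over all protein-coding genes the share is 1.46%.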

How the data were processed

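The authors trimmed single-end reads, aligned them to mm9 with Bowtie2, removed alignments of low quality and combined the reads of independent experiments. Peaks were then found by the authors with MACS 1.4, taking IgG reads from the same cells as background. Each deposited line holds a position and a score, which is the negative log10 of the peak's p-value multiplied by 10. Its minimum is 40, a p-value of 0.0001. Scores of single peaks were not compared between lists, since the study gives depth only as a range for each population. The same bands and minimums of score were nevertheless applied to both lists.

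Overlaps, clusters and gene counts were computed with Python 3.11.15, numpy 2.4.6, pandas 2.3.3 and scipy 1.17.1, after 4 of 4 settings of these steps were recovered exactly on simulated intervals. Sequence was read with pysam 0.24.0 from NCBIM37, the assembly of mm9, and genes were the 22367 protein-coding genes of GENCODE vM1 on placed chromosomes, where some symbols have more than 1 entry. Newer names came from RefSeq (GRCm38.p6), matched by symbol or unambiguous synonym for 21470 genes, and no coordinates were taken from it. Positions are 1-based. The genome sequence used was not soft-masked, so repeat shares were not analysed here.

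The members, gene lists and alternatives were chosen with earlier results of these data known. Genes named are the 10 highest-scoring kept and the 10 highest-scoring gained at the start, the 10 with the most bases under LC-HFSC peaks, and list members with an LC-HFSC peak at the start or, in lists of under 60, in the body. Peaks named are the 5 strongest kept, 5 strongest gained and 3 strongest lost, and clusters are the 8 fullest. A gene and a peak that this rule would name are not reported here. Alternatives were score minimums of 50 and 100, merging within 1000 bp, autosomes only, an overlap of 50%, equally long lists of top peaks, gaps of 50000 and 500000 bp, windows of 500000 and 2000000 bp, a start window of 2500 bp and any transcript start. The RefSeq names were added after seeing the data.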

Additional observations from a re-analysis of the deposited data

Results flagged for a closer look

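Over the same ages the lists of HFSCs and of the CD34- cells differed in their course: the number of peaks was lower in the later HFSC list and almost level in the CD34- cells, while marked gene starts and peak widths went opposite ways. The ratio of the number of peaks in the later to that in the earlier list was 0.0334 in HFSCs and 1.02 in the CD34- cells. The number of genes with a peak at the start was 10120 in the earlier and 66 in the later list of HFSCs, and 626 and 2605 in those of the CD34- cells. The median width of the later list over that of the earlier was 2.51 in HFSCs and 0.539 in the CD34- cells. With 1 list for each population these differences were not tested.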

How the results depend on the processing

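No paired analysis was possible because there is 1 pooled list per population, and no list could be left out. Of 60 values recomputed, 31 stayed within their interval or within 1.5 times a count, 28 moved and 1 reversed. At scores of at least 50 and 100, the share of EA-HFSC peaks kept was 1.52% and 0.802%, the share of LC-HFSC peaks kept 38.1% and 21.9%, the width ratio 2.39 and 2.15, the share in the 10 fullest windows 30.02% and 42.9%, and the number of genes keeping a body peak 166 and 32. At 100, moreover, 32.1% of a kept LC-HFSC peak was covered, 68.4% had a neighbour within 100 kb, chromosome 17 had 13.4 LC-HFSC peaks per 100, and 7 genes kept and 11 gained a peak at the start. Each minimum was applied to both lists, so a gene with only weaker EA-HFSC peaks could count as gaining. Merging gave 1.62% of EA-HFSC peaks kept, 51.2% with a neighbour and 19.5% in the fullest windows. An overlap of 50% gave 1.57% and 12.3% kept. With the 1414 top-scoring peaks of each list, 1.13% of EA-HFSC and 1.20% of LC-HFSC peaks were kept, 79.8% of a kept peak was covered and the width ratio reversed to 0.579, against EA-HFSC peaks with a median of 2812 bp. Gaps of 50 and 500 kb gave 54.3% and 71.2% with a neighbour, and windows of 500 kb and 2 Mb gave 18.2% and 27.4%. Any transcript start gave 82 genes that kept a peak. The causes of the other changes were not tested. Depth stated only as ranges, pooled replicates and reads from repeated sequence limit each value.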
